A study of Mus musculus with 2 samples.

Results

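The genes described here form the core of the cGAS-STING pathway, by which cells sense DNA in the cytosol. They are 10 genes chosen by name (Cgas, Sting1, Tbk1, Ikbke, Irf3, Trex1, Enpp1, Trim56, Ifi204 and Samhd1), and all 10 were found among the 17245 gene symbols of the deposited expression table. RNA came from hand-picked pancreatic islets of mice, isolated with collagenase and kept in serum-containing medium. One library was from wild-type (WT) islets and the other from islets labelled KO, which the series describes as a β-cell knockout of cGAS (cGASβKO). With 1 library for each genotype, nothing below has a replicate check and no p-value is given. Which exon was deleted, what drove recombination, the age of the mice and how many mice gave islets to each library are not stated in the labels. Whole islets also hold cells outside the β-cell lineage, in which a β-cell deletion would leave the gene intact.

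When the enzyme cGAS binds double-stranded DNA it makes the cyclic dinucleotide cGAMP. The membrane protein STING binds cGAMP, leaves the endoplasmic reticulum and recruits the kinase TBK1, with its relative IKKε (encoded by Ikbke), which phosphorylates the transcription factor IRF3 so that it can induce type I interferon and other genes. Several enzymes hold the pathway back: TREX1 degrades cytosolic DNA, SAMHD1 breaks down deoxynucleotide triphosphates and acts at stalled replication forks, and ENPP1 hydrolyses cGAMP outside cells. The ubiquitin ligase TRIM56 has been reported to modify both STING and cGAS, and IFI204 is a DNA-binding protein of the PYHIN family that can signal through STING. Loss of TREX1 or SAMHD1 function is a known cause of inherited interferon-driven disease.

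RefSeq windows of 250 bases before an annotated start site were used for 8 of the 10 genes, on the mouse build GRCm38.p6. Ifi204 had no entry and Sting1 was left out, so nothing is said of motifs at these genes. A gene can have several start sites, so a window can lie inside the gene's outer span: this held for all of the Trim56 window, for 1 of 2 Trex1 windows and for the end of the Ikbke window. The Samhd1 window lies outside the RefSeq span, but 169 of its 250 bases are exon of Samhd1 in the GENCODE annotation. The windows shown are for the targeted gene, the pair of related kinases and the only gene with 2 kinds of motif, in each case the longest stretch free of annotated exons, read 5′ to 3′ on the gene's strand, with motif matches in capitals.
Cgas, chr9:78443238-78443487, minus strand: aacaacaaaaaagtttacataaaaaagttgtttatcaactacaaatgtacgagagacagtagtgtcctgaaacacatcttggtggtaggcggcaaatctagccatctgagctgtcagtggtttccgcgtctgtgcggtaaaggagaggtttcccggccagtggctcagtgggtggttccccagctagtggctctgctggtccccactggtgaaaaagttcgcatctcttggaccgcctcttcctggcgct
Tbk1, chr10:121586795-121587044, minus strand: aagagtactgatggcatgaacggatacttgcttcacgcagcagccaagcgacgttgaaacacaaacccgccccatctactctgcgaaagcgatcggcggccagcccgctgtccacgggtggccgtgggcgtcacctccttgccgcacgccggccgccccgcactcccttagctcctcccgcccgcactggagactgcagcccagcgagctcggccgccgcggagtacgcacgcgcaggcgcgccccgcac
Ikbke, chr1:131279607-131279813, minus strand: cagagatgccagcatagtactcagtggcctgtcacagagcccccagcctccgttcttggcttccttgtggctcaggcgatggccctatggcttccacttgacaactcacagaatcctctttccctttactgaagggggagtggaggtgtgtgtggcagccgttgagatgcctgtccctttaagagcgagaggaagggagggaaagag
Samhd1, chr2:157135266-157135346, minus strand: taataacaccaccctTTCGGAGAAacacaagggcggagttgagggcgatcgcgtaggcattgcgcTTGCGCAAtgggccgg
Both strands were searched for the interferon-stimulated response element core (GAAANNGAAA), the STAT-binding GAS element (TTCNNNGAA) and a C/EBP motif (TTGCNNAA), since CEBPβ is named in the title of the series. Over all 32851 RefSeq windows of the same length these letters occurred in 2.98%, 7.02% and 9.56%. No window of the 8 genes held the first motif. Samhd1 held 1 GAS match, TTCGGAGAA, and 1 C/EBP match, TTGCGCAA, and the Enpp1 window held 1 C/EBP match, TTCCGCAA; none of the other windows held a match. The kinase genes differ in base composition here: the whole Tbk1 window had 31 CpG dinucleotides and 68.4% GC, against 4 and 54.4% for Ikbke. A match is a run of letters and not a shown binding site.

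Values are FPKM, scaled by gene length and per 1000000 reads. The gene lengths used are not given, and every comparison of levels between genes depends on them. The library labelled KO had a total of 14537660 reads and the WT library 19097001, both recovered from the spacing of the values. An interval given with a ratio is the exact 95% Clopper-Pearson interval of the ratio of FPKM, from the smallest whole reads that fit both values, and covers counting error only. A gene was called expressed with at least 1 FPKM in either library, which 12428 genes reached, and was called higher or lower when log2((KO + 1)/(WT + 1)) was at least 1 either way. In bulk RNA, fewer cells of a type and less RNA per cell cannot be told apart. Islet identity was plain in both libraries, where the insulin genes Ins1 and Ins2 had the highest levels of all markers checked.

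The core genes spanned a wide range of levels. In the WT library they ran from 0.205 FPKM for Cgas to 17.6 FPKM for Irf3, an 85.8-fold range. In the library labelled KO the lowest and highest were the same genes, at 0.521 and 49.4 FPKM, 94.7-fold apart. The middle of the order differed: Tbk1 was the second highest in the WT library and the fifth in the other, and Trex1 moved from the fifth place to the second. Trim56, the fourth highest in the WT library, was the eighth in the library labelled KO. The members' FPKM values summed to 116 in the library labelled KO and 62.0 in WT, and Irf3 alone made up 42.4% and 28.3% of those sums.

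**Figure D1:**
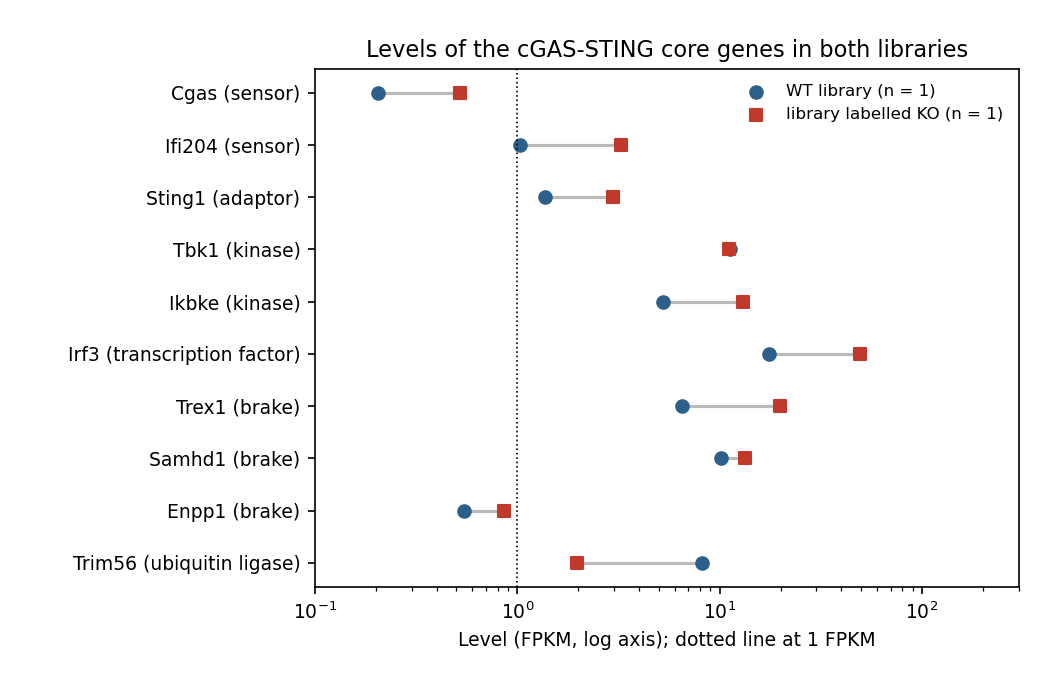
Level of each core gene in FPKM (log axis) in the WT library (circles) and the library labelled KO (squares), 1 library each, joined by a line. Cgas and Enpp1 lie below 1 FPKM in both libraries, Tbk1 overlaps itself at 11.2 and 11.3 FPKM, and Trim56 is the one gene clearly to the left in the library labelled KO.

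The sensors were low. Cgas (chromosome 9, 78430518 to 78443237, minus strand) stood at 0.521 FPKM in the library labelled KO, against 0.205 FPKM in WT. The targeted gene was thus not lower in the library that carries the knockout label, which rests on at least 31 and 16 reads, and directions are given here between the libraries as labelled. Whether the labels were exchanged cannot be told from these values; if they were, every direction given here would be reversed. At these levels 23.0% of all listed genes lay below it in the library labelled KO and 18.9% in WT. Its ratio was 2.55 (1.35 to 4.98), and its log2 difference of 0.34 is not called, because it reached 1 FPKM in neither library. The deposited gene total does not show which exons the reads came from, nor which cells. In the GENCODE annotation 201 exon bases of Cgas are shared with Gm8093, a pseudogene on the opposite strand.

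Ifi204 (chromosome 1, 173747293 to 173767069) stood at 3.27 FPKM in the library labelled KO, against 1.03 FPKM in WT, 3.18-fold higher (2.23 to 4.61), with at least 109 and 45 reads. Its log2 difference was 1.07, past the 2-fold limit. It lies among related genes of the PYHIN family on chromosome 1, and reads of these close copies are less certain for single genes. Its neighbours pointed the same way: Ifi207 was at 2.79 and 1.22 FPKM, and Mndal at 14.9 and 4.14 FPKM, 3.61-fold higher (3.00 to 4.36). Over the 10 listed family members, a grouping made after their values were seen, all 10 were nominally above WT, 6 were expressed and 3 were at least 2-fold higher, where 6.98% of all expressed genes were. Nothing is read from that count. Their summed level was 33.6 FPKM against 10.5 FPKM.

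Sting1 (chromosome 18, 35733678 to 35740554), the adaptor that binds cGAMP, stood at 2.96 FPKM in the library labelled KO, against 1.37 FPKM in WT. The ratio of 2.15 (1.55 to 3.01) came with a log2 difference of 0.74, short of the 2-fold limit on the scale with a pseudocount, although the plain ratio is over 2. Sting1 was 5.68 times the level of Cgas in the library labelled KO and 6.71 times in WT.

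The kinases differed from each other. Tbk1 (chromosome 10, 121546455 to 121586794) stood at 11.2 FPKM in the library labelled KO, against 11.3 FPKM in WT, with a ratio of 0.990 (0.879 to 1.11) and at least 492 and 653 reads. This narrow interval includes 1, so a difference was not detectable with these reads. Ikbke (chromosome 1, 131254600 to 131279601) stood at 13.0 FPKM in the library labelled KO, against 5.22 FPKM in WT, 2.49-fold higher (2.21 to 2.81). Its log2 difference of 1.17 was 1.01 with the trend on GC content and transcript length removed, just past the 2-fold limit. Within the WT library Ikbke was at 0.463 times the level of Tbk1, and within the library labelled KO at 1.16 times, so their order was reversed. The intervals of their ratios do not overlap. Ikbke shares 159 and 65 exon bases with the antisense genes Gm28914 and Gm28913, and whether counting used strand is not given.

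Irf3 (chromosome 7, 44997648 to 45002848, plus strand), the factor that the kinases activate, was the most abundant of the core genes in both libraries. It stood at 49.4 FPKM in the library labelled KO, against 17.6 FPKM in WT, 2.81-fold higher (2.53 to 3.12), from at least 1153 and 539 reads. Its log2 difference of 1.44 was above that of 98.5% of expressed genes. With the trend on GC content and transcript length removed, the Irf3 difference was 1.06, just past the 2-fold limit. Irf3 starts head to head with Bcl2l12, a gene on the opposite strand that shares 88 exon bases with it, and 181 of the 250 bases before the Irf3 start are exon of Bcl2l12. Bcl2l12 was itself low, at 2.25 and 1.11 FPKM, and Scaf1, which lies 99 bases beyond the other end, was at 39.8 and 27.9 FPKM, a log2 difference of 0.50. Irf3 was at 4.42 times the level of Tbk1 in the library labelled KO and 1.56 times in WT.

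The genes that restrain the pathway were all above WT, by different amounts. Trex1 (chromosome 9, 109057932 to 109059723) stood at 20.0 FPKM in the library labelled KO, against 6.49 FPKM in WT, 3.07-fold higher (2.17 to 4.42), and its log2 difference of 1.48 was the widest upward one among the core genes. Every annotated exon base of Trex1, 1147 in all, is also exon of Atrip on the same strand, so its reads are less certain. Atrip, a partner of the checkpoint kinase ATR, was at 6.77 and 6.62 FPKM, a log2 difference of 0.03. The smallest whole reads for Trex1, 110 and 47, imply a gene length of 379 bases, whereas its shortest annotated transcript has 1054, so the true reads may be a multiple and the interval narrower. With the trend on GC content and transcript length removed, the Trex1 difference was 0.82, below the 2-fold limit.

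Samhd1 (chromosome 2, 157097534 to 157135096) stood at 13.3 FPKM in the library labelled KO, against 10.2 FPKM in WT, a ratio of 1.30 (1.19 to 1.43) with at least 909 and 917 reads. Its level was 1.57 times that of Trex1 in the WT library and 0.665 times in the library labelled KO. Enpp1 (chromosome 10, 24637914 to 24712159) stayed below 1 FPKM, at 0.864 and 0.543 FPKM. Its ratio was 1.59 (1.15 to 2.21), and like Cgas it is not called. Enpp3, a related gene 60246 bases away on the same strand, was also low, at 1.05 and 0.818 FPKM.

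Trim56 (chromosome 5, 137111286 to 137116462, minus strand) alone among the core genes passed the 2-fold limit downward. It was at 1.98 FPKM there and 8.13 FPKM in WT, 4.12-fold lower (2.60 to 6.82). Its log2 difference was -1.62, and only 67 of the 12428 expressed genes, 0.539%, had a lower one. The smallest reads behind it, 22 and 119, imply a length of 766 bases, shorter than its shortest annotated transcript of 867 bases, so here too the true reads may be a multiple. In GENCODE the longest Trim56 transcript has 9279 bases, while the RefSeq gene spans 5177 bases, and which model was counted is not given. No annotated gene overlaps it. Trim56 was at 5.92 times the level of Sting1 in WT and 0.667 times in the library labelled KO, which depends on the length used for each gene.

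**Figure D2:**
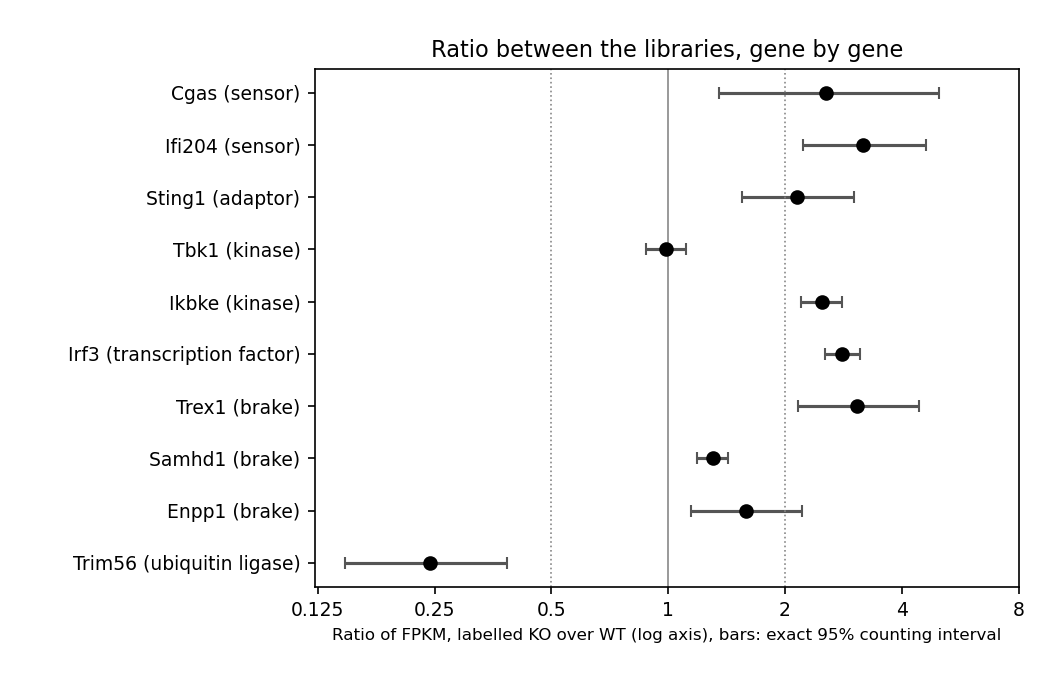
Ratio of FPKM, library labelled KO over WT (log axis), for each core gene, with exact 95% counting intervals as bars; the solid line is at 1 and the dotted lines at 0.5 and 2. The Tbk1 interval, 0.879 to 1.11, is the only one that includes 1, and the Trim56 interval is the only one wholly below it.

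Of the 8 expressed core genes, 4 were at least 2-fold higher in the library labelled KO (Ifi204, Ikbke, Irf3 and Trex1), 1 was at least 2-fold lower (Trim56) and 3 lay between (Sting1, Tbk1 and Samhd1). Among all expressed genes 6.98% were called higher, 3.88% lower and 10.9% either way. The median log2 difference of the 8 was 0.91, against 0.08 for all expressed genes. Higher genes made up 64.3% of all calls, but 46.5% with each library scaled to a sum of 1000000, 52.3% with median-ratio scaling and 44.3% with equal sums without the 20 highest genes. The first and last of these moved the median of all genes by -0.12 and -0.13. Under all 3 scalings Trim56, Ikbke, Irf3 and Trex1 kept their calls, and Ifi204 came to 0.98 with equal sums without the 20 highest genes. With a pseudocount of 5 FPKM only Irf3 and Trex1 stayed past the limit. The 10 genes were picked by name with earlier results of these data known, so these counts describe them and test nothing.

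**Figure D3:**
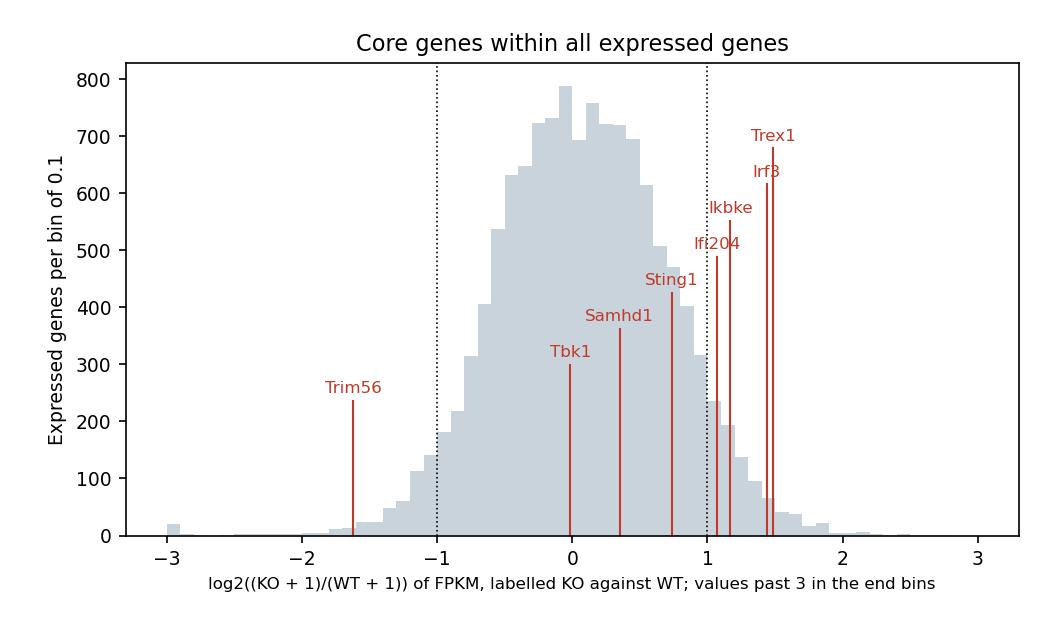
Histogram of log2((KO + 1)/(WT + 1)) over the 12428 expressed genes in bins of 0.1, with the 8 expressed core genes marked by vertical lines whose height has no meaning and the 2-fold limits dotted. Irf3 at 1.44 and Trex1 at 1.48 lie in the upper tail, Trim56 at -1.62 in the lower tail and Tbk1 at -0.01 near the centre.

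Genes around the core were described through 8 lists, all with the same background shares as above. Of 19 expressed sensors of cytosolic nucleic acid, 2 were at least 2-fold higher, the PYHIN genes Ifi203 (7.26 against 2.01 FPKM, 3.62-fold, 2.80 to 4.72) and Mndal. The RNA helicase Dhx9 was the 1 lower gene, at 14.0 against 30.1 FPKM; its log2 difference of -1.05 was -0.64 once the GC and length trend was taken out and -0.89 with a pseudocount of 5 FPKM, so this call is lost under both. The RNA sensors Ddx58, which encodes RIG-I, and Ifih1, which encodes MDA5, had log2 differences of 0.18 and -0.11, and their adaptor Mavs was at -0.40. The median of the list was 0.23.

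The median of 15 expressed nucleases and other brakes on self nucleic acid was 0.67; 3 passed 2-fold upward and 1 downward. The higher ones were the DNase gene Dnase1l2 (9.11 against 2.24 FPKM), the lysosomal exonuclease Pld4 (9.55 against 3.55 FPKM) and the RNA helicase Skiv2l (43.6 against 19.1 FPKM). The lower one was Rnaset2b, a close copy of Rnaset2a, so its value is less certain. The subunits of RNase H2, whose loss, like that of TREX1 or SAMHD1, can cause inherited interferon-driven disease, were picked out after their values were seen; Rnaseh2a, Rnaseh2b and Rnaseh2c had log2 differences of 0.91, 0.67 and 0.84, all within 2-fold. After removal of the GC and length trend the list's median was 0.24 and 1 gene was higher, as Pld4 and Skiv2l came to 0.86 and 0.88.

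Genes that move, modify or turn over STING lay around a median of -0.16 over 26 expressed members; none passed 2-fold upward and 2 did so downward. These were Tmed2, a cargo receptor of early secretory vesicles (30.8 against 65.0 FPKM), and Insig1, a sterol-regulated protein of the endoplasmic reticulum (20.7 against 45.9 FPKM). The downward count was 5 with each library scaled to 1000000, 4 with equal sums without the 20 highest genes, 1 without the GC and length trend and 0 with a pseudocount of 5 FPKM. Without the trend Tmed2 and Insig1 came to -0.91 and -0.98, so the 1 lower gene there was neither of them. Of 11 expressed genes of cGAMP transport and breakdown none passed 2-fold; the widest were Lrrc8c, a volume-regulated channel subunit, at 0.76 and the connexin Gja1 at 0.71. Without the GC and length trend both passed, at 1.24 and 1.01. None of 18 kinase adaptors and NF-kB genes passed either, with Nfkbia, the inhibitor of NF-kB, at -0.91 and Relb at 0.85. Nfkbia did pass downward, at -1.06, under each of the scalings to 1000000 and to equal sums, and at -1.19 without the trend. Among 19 expressed regulators of cGAS, Sumo2, a small ubiquitin-like modifier, was the 1 past 2-fold, lower at 31.2 against 64.4 FPKM; its log2 difference of -1.02 was -0.94 with a pseudocount of 5 FPKM. The medians of the last 2 lists named were -0.12 and -0.22, but 0.11 and 0.07 once the GC and length trend was taken out.

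Downstream of Irf3, of 14 expressed interferon regulatory factors and interferon receptor genes, 3 passed the limit upward and none downward. The median was 0.33. The interferon genes Ifnb1, Ifna2 and Ifna4 of this list were not among the deposited gene symbols, so they could not be looked at. Irf7, which amplifies the interferon response, was at 13.6 against 4.45 FPKM (3.05-fold, 2.53 to 3.70). Stat2 was at 19.3 against 7.90 FPKM and Irf9 at 18.7 against 8.59 FPKM; their products act together at interferon-stimulated response elements. The receptor chains Ifnar1 and Ifnar2 had log2 differences of 0.12 and 0.22. With a pseudocount of 5 FPKM none of the list was at least 2-fold higher, and under the 3 scalings Irf9 fell short, at 0.90 to 0.96. Irf7 was at 0.275 times the level of Irf3 in the library labelled KO and 0.253 times in WT.

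Of 20 expressed targets of IRF3 and type I interferon, 9 passed the limit upward and none downward; the median was 0.89 and 19 of the 20 lay above 0. Besides Isg15, Oas2 and Ifi44 these included Bst2, the tetherin that holds budding virus at the cell surface (34.0 against 13.5 FPKM, 2.52-fold, 2.13 to 2.99; log2 difference 1.27, but 0.61 without the GC and length trend), and the guanylate-binding protein genes Gbp2 and Gbp3, at log2 differences of 1.13 and 1.27. Cxcl10, an early IRF3-induced chemokine gene, was at 9.62 against 5.52 FPKM, and Ccl5 at 16.9 against 8.56 FPKM, both within 2-fold. Cmpk2 was the 1 below 0, at 11.8 against 15.5 FPKM. Mx1 and Mx2 of this list were not among the deposited gene symbols. The count of higher genes ran from 3 with a pseudocount of 5 FPKM to 12 with one of 0.1 FPKM.

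**Figure D4:**
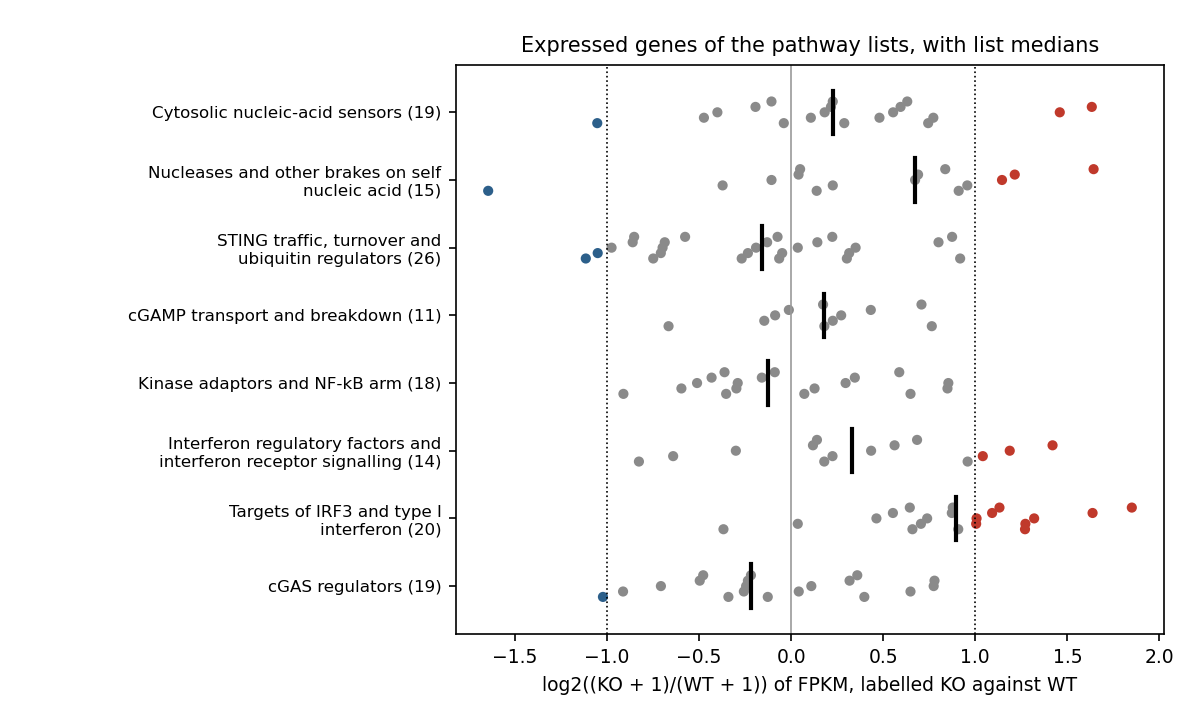
log2((KO + 1)/(WT + 1)) of every expressed gene in the 8 pathway lists (number expressed in brackets), with red points at least 2-fold higher, blue at least 2-fold lower, and black bars at the list medians. The interferon targets are centred at 0.89 with 9 red points, while the kinase adaptors and NF-kB arm have a median of -0.12 and no coloured point.

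Markers of several other cell types were also higher in the library labelled KO. Of 12 macrophage and dendritic-cell markers 11 were expressed, all above 0; 6 passed 2-fold and the median was 1.11, where 6.98% of all expressed genes were called higher. Without the GC and length trend 2 passed and the median was 0.60. Their summed level was 740 FPKM in the library labelled KO, against 330 FPKM in WT, a ratio of 2.24, and no marker was at 0. Cd74 was at 421 and 194 FPKM, Lyz2 at 91.3 and 40.2 FPKM and C1qa at 88.7 and 35.6 FPKM. Endothelial markers summed to 797 and 343 FPKM, a ratio of 2.32, 6 of 10 past 2-fold upward, led in level by Plvap, Emcn and Eng. Fibroblast and pericyte markers summed to 208 and 109 FPKM. All 4 expressed ductal markers lay above 0, with a median of 0.69 and none past 2-fold. Of 7 other islet endocrine markers 5 lay above 0 and 1 passed 2-fold upward. Their median was 0.64, but -0.07 without the GC and length trend. Macrophages and endothelial cells are known to express Cgas, Sting1 and interferon-stimulated genes. The part of these cells in the ratios of the core genes was not tested.

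Acinar markers were lower in the library labelled KO, at a summed 77.4 against 1404 FPKM, all 7 expressed of 10 past 2-fold downward and Ptf1a listed at 0 in that library. The median of 10 β-cell markers was -0.55, with 1 past 2-fold upward and 3 downward. The upward count was 0 under the 3 scalings and without the GC and length trend. Over all settings the downward count ran from 2 to 4. Of all expressed genes, 3.88% were called lower and 6.98% higher. Most lymphocyte markers were near the floor, with 2 of 8 expressed and a summed level of 7.25 against 10.8 FPKM. Cd79a, at 2.68 against 7.11 FPKM, was the 1 past 2-fold, downward. The part of these shifts in the low Trim56 value was not tested either.

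**Figure D5:**
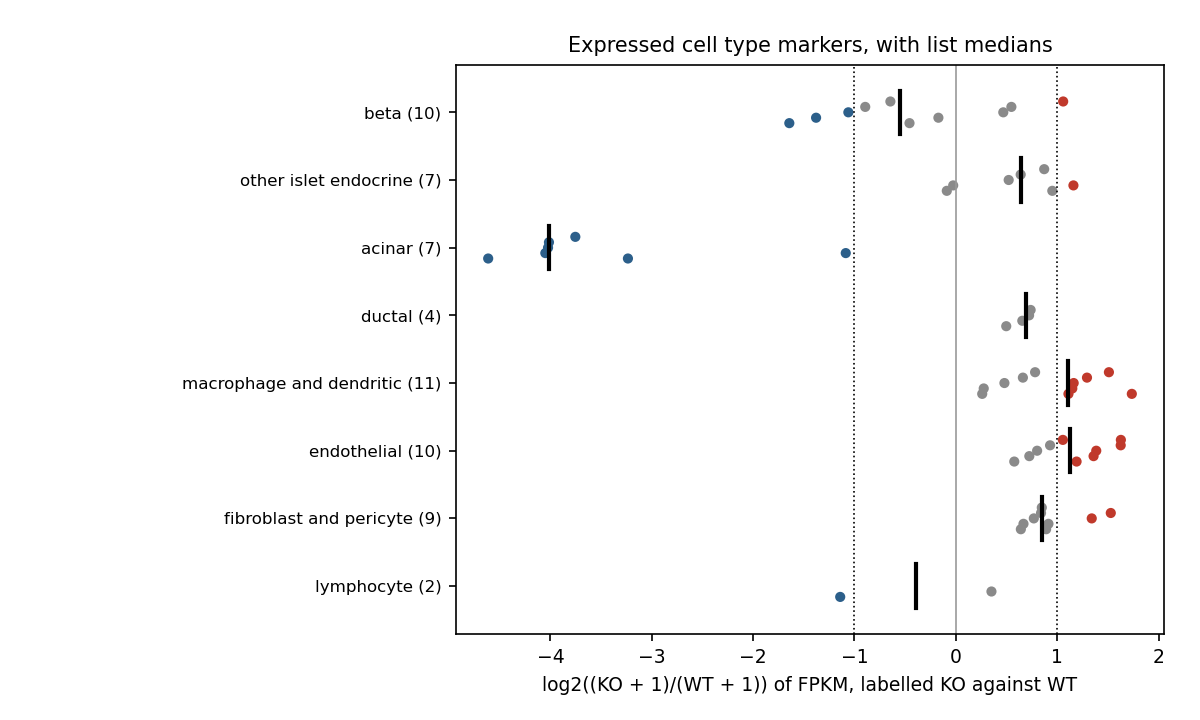
log2((KO + 1)/(WT + 1)) of every expressed cell type marker in 8 lists (number expressed in brackets), coloured as at least 2-fold higher (red) or lower (blue), with black bars at the medians. Macrophage and endothelial medians lie at 1.11 and 1.12, and the acinar median at -4.01.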

How the data were processed

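RNA-seq of islets was deposited by the authors as 1 table of FPKM values with 1 column for each library. Per the submitters' processing notes it is based on GRCm38 (mm10). Aligner, counter, annotation, strand setting and any filter: not given in the sources used here. FPKM values were used without further scaling. Library totals came from ratios of low genes below 0.5 FPKM and a scan for whole gene lengths. A ratio of whole reads then had to fit within a relative 5e-08. A whole length had to fit within 0.0001 of a base, plus a 3e-08 share of the length. Of the 16127 genes above 0 in both libraries, 16030 (99.4%) met both conditions. Large denominators were allowed, so almost any ratio would meet the first condition, and that part checks little. Recovery was tested on simulated data made from the WT values of 17245 genes: the reads were equal for 83.2% and a divisor of the true ones for 99.9% of recovered genes. No count test was run, as the unit is FPKM and each group has 1 library. Differences used a pseudocount of 1 FPKM, which understates low genes. The members and all 16 lists were chosen with earlier results of these data known. The rule named all members, list genes past 2-fold (or the 2 widest), the 3 highest markers of each list, and neighbouring genes; any other gene named was picked with its values in view. Coordinates and promoter windows are from RefSeq on GRCm38.p6; exons, lengths, overlaps and GC content are from GENCODE M21. Python 3.11.15, scipy 1.17.1 and statsmodels 0.14.6 were used. Alternatives were pseudocounts, floors, scalings and removal of a lowess trend (fraction 0.3, 3 iterations) on GC content and transcript length for 12373 expressed genes. The values of 1 list gene are not reported here.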

Additional observations from a re-analysis of the deposited data

How the results depend on the processing

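The direction of 9 of the 10 core genes held under every alternative that gave a value; Tbk1, at -0.01, was at 0.27 once the GC and length trend was taken out, which gave no value for Cgas and Enpp1. With a pseudocount of 5 FPKM the core genes at least 2-fold higher fell to 2 and those lower to 0, since Ifi204, Ikbke and Trim56 came to 0.46, 0.82 and -0.91. With a pseudocount of 0.1 FPKM, Cgas and Sting1 were at 1.03 and 1.05. The median of the core genes ran from 0.39 to 1.18. Over all genes the higher count was 1556 and 305 with pseudocounts of 0.1 and 5 FPKM, 576 with equal sums without the 20 highest genes and 555 with the trend removed; the lower count was 181 with a pseudocount of 5 FPKM, 796 with each library scaled to 1000000, 724 with equal sums and 272 with the trend removed. The cause of these shifts was not tested. No paired analysis was possible because each genotype has 1 library; for the same reason no replicate could be left out. Few reads limit Cgas (at least 31 and 16) and Trim56 (at least 22 and 119).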

Other observations

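Rnaset2a and Rnaset2b, near-identical genes for a lysosomal RNase that are members of the list of brakes on self nucleic acid, went apart in value. Rnaset2a was at 10.5 against 9.44 FPKM and Rnaset2b at 7.40 against 25.3 FPKM in the library labelled KO and WT. How reads were divided between these copies is not given.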
